A study of Rattus norvegicus with 21 samples.

Results

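Cells sorted as macrophages from rat brain 24 h after an experimental stroke were set against cells sorted as microglia after a sham operation. Their libraries were chosen by title and number 6 of the 21 in the series, 3 macrophage libraries (MO) and 3 sham libraries (SH). All came from adult rats of the strain given in the labels as Winstar. The stroke animals had a middle cerebral artery blocked for 90 min with a filament that was then withdrawn, and the labels give their treatment as 24h MCAO. In the sham animals the external carotid artery was tied off without blocking the brain artery, and their treatment field reads 24h PBS injection, an agent that the protocol does not mention. Cells came from the side of the brain that was operated on, after the blood was flushed out, and were gated on CD11b, an integrin of myeloid cells, and CD45, a phosphatase that is abundant on blood leukocytes. Macrophages were taken as CD11b+CD45high and microglia as CD11b+CD45low. No macrophages from sham animals were analysed here, so the origin of the cells and the injury change together in this comparison and cannot be told apart. The protocol calls the replicates biological, but whether a library holds 1 animal or several is not given in the sources used here, and p-values measure the spread between libraries.

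Microglia are macrophages that settle in the brain before birth and maintain themselves there, surveying the tissue and clearing debris. Monocytes of the blood enter brain tissue through the damaged vessels after ischaemia and become macrophages that take up dead cells and release inflammatory mediators. Both cell types carry CD11b, and the level of CD45 is the usual means of separating them by flow cytometry. An activated microglial cell can raise its CD45, so the gate is an operational boundary.

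The 6 libraries held 6923630 to 9339330 expected counts, the reads that the RSEM program assigns to each transcript, and 15836 to 16335 transcripts with a count above 0. The files list transcripts by Ensembl identifier without gene names, so only Chi3l1 and Nos2 are known by name. Neither the cell types nor the share of other cells within each gate could therefore be checked against marker genes. The cell fraction field of macrophage replicate 3 reads CD11b+CD45low, against its title and source name, and that of MCAO microglia replicate 3 reads CD11b+CD45high. Lists of transcripts that differed 8-fold or more from sham were therefore made without these 2 libraries and then looked up in them. Macrophage replicate 3 lay beyond both of the other MCAO microglia libraries in 641 of 765 transcripts of the higher list and in 480 of 591 of the lower list. Microglia replicate 3 lay beyond both of the other macrophage libraries in 74 and 1 of them. On these lists the 2 libraries stood with the groups of their titles.

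With libraries grouped by title, macrophages differed from sham microglia in most of the transcripts tested. Of 13081 transcripts tested, 9135 (69.8%) passed an adjusted p of 0.05 in edgeR's quasi-likelihood test, with 4757 higher (36.4%) and 4378 lower (33.5%) in macrophages. When the cell fraction field set the groups, 4422 were called (2657 higher, 1765 lower). With upper-quartile scaling the balance turned, to 4342 higher and 4866 lower, as that scaling moved the median log2 fold change of all transcripts from 0.02 to -0.08. Of the called transcripts, 2635 (20.1% of those tested) were 2-fold or more higher, 2300 (17.6%) as much lower, and 4200 differed by less than 2-fold. The median size of a difference over all tested transcripts was 1.71-fold, and the distribution from its 25th to its 75th percentile ran from -0.72 to 0.82 on the log2 scale. The tails were much longer, with the 1st and 99th percentiles at -5.24 and 6.45. Macrophage libraries were all above the sham libraries in 5107 transcripts (39%) and all below them in 4705 (36%). Correlation of log2 levels across transcripts, which are not independent replicates, was 0.973 to 0.982 among macrophage libraries, 0.980 to 0.981 among sham libraries and 0.776 to 0.822 between the groups.

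**Figure D1:**
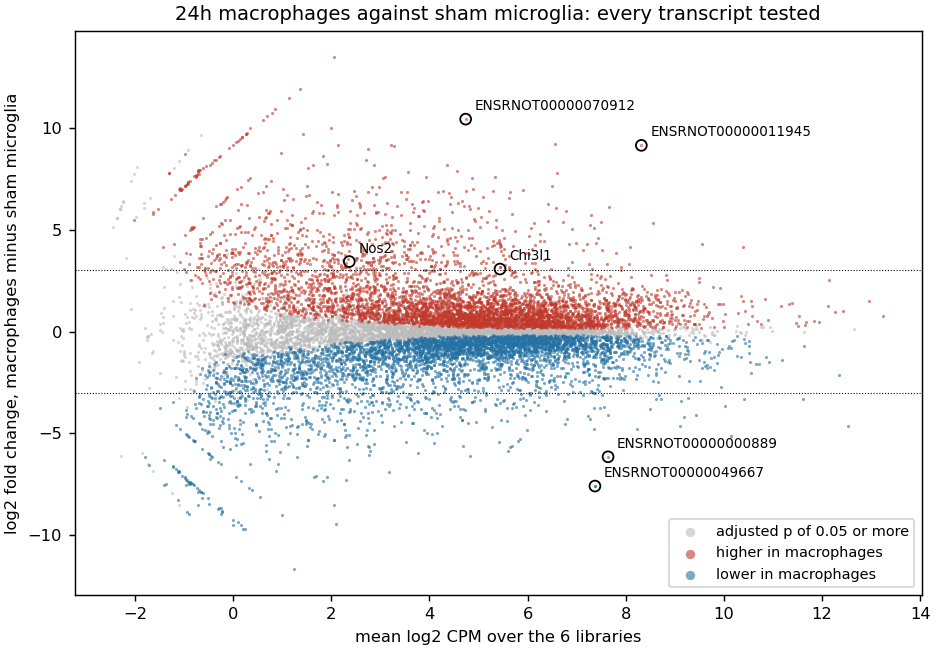
Each point is 1 transcript, with its mean log2 CPM over the 6 libraries on the x axis and its log2 fold change, macrophages minus sham microglia, on the y axis. Red and blue points passed an adjusted p of 0.05, dotted lines mark 8-fold, and circles mark the 6 named genes and transcripts, of which ENSRNOT00000070912 and ENSRNOT00000011945 lie far above the rest at their level.

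With all libraries kept, the far end of the distribution leaned towards macrophages. A transcript at 0 in every library of a group has no fold of its own and is counted here at its lower bound, the fold over 3 counts in each library of that group. On that count 726 transcripts rose 8-fold or more (752 by the fitted values, 5.75% of those tested) and 520 fell as far (545 fitted, 4.17%). At 32-fold the numbers were 213 higher and 96 lower, and at 64-fold they were 105 and 33. In 506 transcripts (3.87% of those tested) the lowest macrophage library was more than 8-fold above the highest sham library. The lowest sham library was more than 8-fold above the highest macrophage library in 268 (2.05%). These gaps use no bound, so a transcript at 0 throughout a group passed if every library of the other group was above 0. With upper-quartile scaling the fitted 8-fold counts were 720 higher and 595 lower, and they were 389 and 74 when the cell fraction field set the groups. Without macrophage replicate 2 they were close to even, at 789 higher and 745 lower. The count of transcripts that fell 8-fold or more was 830 without a filter on low counts and 332 with a minimum of 50 counts in 3 libraries. No gap in the distribution marks 8-fold, since 53 higher and 49 lower transcripts lay between 8- and 9-fold, and 76 and 77 between 7- and 8-fold.

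**Figure D2:**
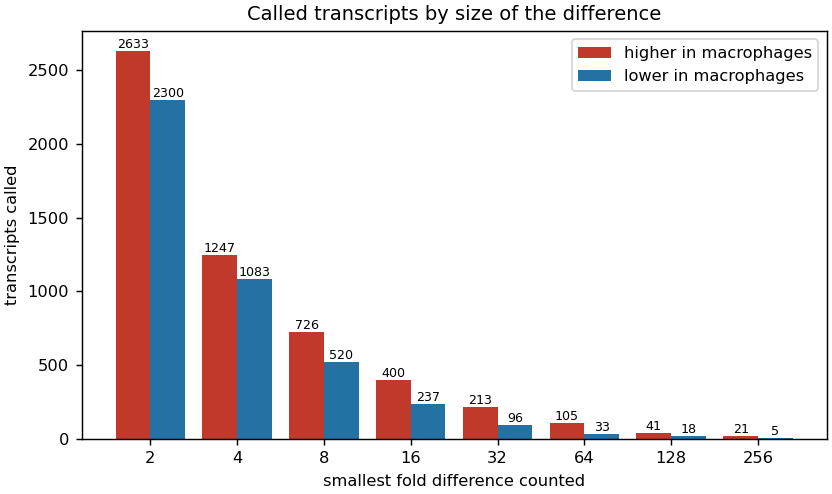
Bars give the number of called transcripts at or beyond each fold on the x axis, with transcripts at 0 in a whole group counted at their lower bound. The counts are 2633 higher and 2300 lower at 2-fold and 105 higher and 33 lower at 64-fold.

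Large differences were most frequent among scarce transcripts. The tested transcripts were ranked by mean log2 CPM over the 6 libraries and divided into 5 bins of 2616 or 2617. That mean spans both groups, so a transcript near 0 in either group is itself drawn towards a low bin. How much of the trend comes from this ranking was not tested. In the bin with the lowest levels 339 rose 8-fold or more and 310 fell as far, with a median standard error (SE) of 0.52 on the log2 scale. In the most abundant bin these numbers were 40 and 37, with a median SE of 0.091. The share called ran the other way, from 56.4% in the scarcest bin to 80.4% in the most abundant. Precision therefore differed across the range, and differences of scarce transcripts carry the wider error.

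The direction of a difference also went with transcript length. Among the shortest of 5 bins of tested transcripts (156 to 1206 nt) 50.2% were called higher and 17.9% lower in macrophages, with a median log2 fold change of 0.55. In the longest bin (3509 to 22056 nt) 27.6% were higher and 45.3% lower, with a median of -0.25. The 3 bins between had medians of 0.13, -0.04 and -0.15, in order of length. MCAO microglia against the same sham libraries had medians of 0.32 for the shortest and -0.10 for the longest bin. The difference between transcript length and effective length in the files, which tracks the fragment length, corresponded to 169, 157 and 159 nt in macrophage replicates 1 to 3 and 169 to 171 nt in the sham libraries. The part of fragment length in the trend was not tested.

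Of the 100 most counted in macrophages, 51 were also among the 100 most counted in sham microglia. The choice by macrophage level favours transcripts higher in macrophages, and the choice by sham level the reverse, and over all tested transcripts 36.4% were called higher and 33.5% lower. Among the macrophage 100, 72 were called higher and 16 lower, with 12 at least 8-fold higher. Among the sham 100, 64 were called lower and 23 higher, with 18 at least 8-fold lower. The 752 transcripts at least 8-fold higher took up 8.92%, 7.10% and 9.49% of all counts in macrophage replicates 1 to 3. They took 0.337%, 0.325% and 0.357% in the sham libraries. The 545 at least 8-fold lower held 11.5%, 11.5% and 11.4% of sham counts, and 0.492%, 0.952% and 0.518% of macrophage counts. These lists were chosen on the same libraries, so their shares describe how much RNA the extremes represent. In sorted bulk samples a lower level can come from fewer cells carrying a transcript or from less of it per cell, and these cannot be told apart.

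**Figure D3:**
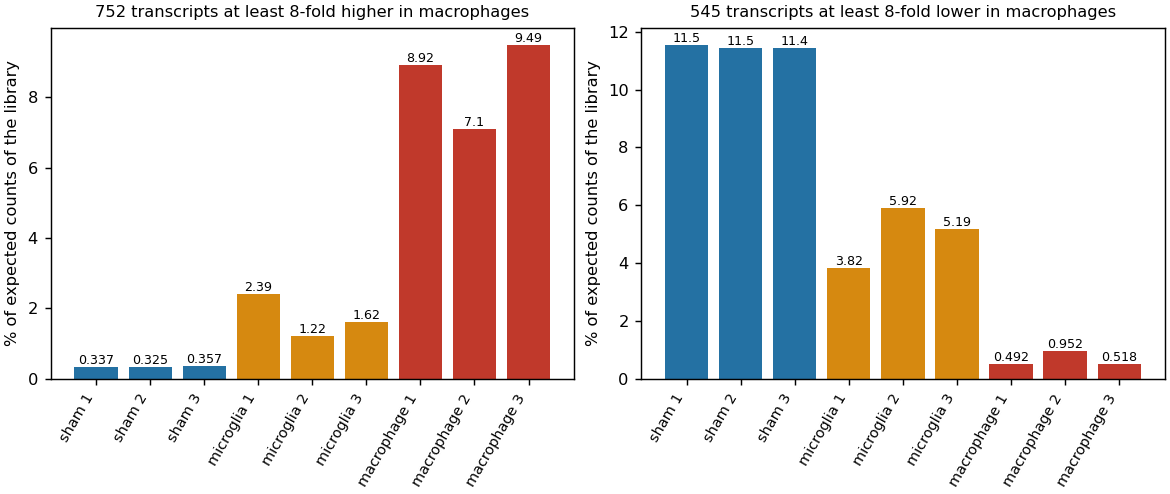
Bars give the percent of each library's expected counts held by the transcripts at least 8-fold higher (left) and at least 8-fold lower (right) in macrophages than in sham microglia. Sham libraries hold 0.325% to 0.357% in the left panel and macrophage libraries 7.10% to 9.49%, with the 3 MCAO microglia libraries at 1.22% to 2.39%.

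ENSRNOT00000011945 had the largest rise among called transcripts without overlap whose mean log2 CPM reached 3 and which had at least 10 counts in each of the 6 libraries. It stood at 7498, 6669.7 and 8046 CPM (counts scaled to a common library size, corrected by the TMM method) in macrophage replicates 1 to 3. In sham replicates 1 to 3 it was at 12.7, 9.90 and 16.6 CPM. The groups lay far apart, the lowest macrophage library being 401-fold above the highest sham library, and the macrophage libraries differed among themselves by 1.21-fold at most. Its log2 fold change was 9.14 ± 0.41 (SE, n = 3 per group, edgeR adjusted p = 6.2e-07), or 564-fold, and 23 called transcripts rose further. Scaled for length, it ranked 15th, 19th and 15th among all transcripts in the macrophage libraries by TPM, a share of transcripts that corrects for length, at 4493 to 5259 TPM, and between 7840 and 9201 in rank in sham. In MCAO microglia, which share the sham libraries, it was at 2467, 1069 and 1419 CPM.

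ENSRNOT00000070912 had the largest rise when the minimum of 10 counts was not required, while 6 called transcripts outside the other limits rose further. Sham libraries held 4, 6 and 6 expected counts of it, or 0.536, 0.724 and 0.792 CPM. Macrophage replicates 1 to 3 held 970.6, 402 and 1536 CPM. All macrophage libraries were over 500 times any sham library (508-fold for the closest pair), while replicate 3 held 3.82-fold more than replicate 2. The log2 fold change was 10.42 ± 0.80 (SE, n = 3 per group, edgeR adjusted p = 6.0e-06). In MCAO microglia it was at 14.7, 4.12 and 7.64 CPM, so no microglia library of the stroke animals came near the macrophage levels.

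ENSRNOT00000049667 had the largest fall without overlap under the same limit on mean log2 CPM, while 32 called transcripts outside these limits fell further. It was at 2939, 2486 and 2296 CPM in sham replicates 1 to 3, and at 13.8, 3.01 and 23.7 CPM in macrophage replicates 1 to 3. The lowest sham library was 96.8-fold above the highest macrophage library. Its log2 fold change was -7.58 ± 1.10 (SE, n = 3 per group, edgeR adjusted p = 0.00025). By TPM it ranked 30th, 42nd and 46th in the sham libraries. A further identifier has the same expected count in all 21 libraries, and they are treated as 1 measurement here. Whether they share reads was not tested, so the count of either is uncertain. Macrophage replicate 2 was lowest, and among MCAO microglia replicate 2 was lowest as well, at 8.72 CPM against 149.4 and 148.2 in replicates 1 and 3.

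ENSRNOT00000000889 had the next largest fall among transcripts with at least 10 counts in every library. Sham replicates 1 to 3 held 1641, 1636 and 2061 CPM, and macrophage replicates 1 to 3 held 9.89, 45.8 and 20.2 CPM. The closest pair of libraries differed 35.7-fold. The log2 fold change was -6.14 ± 0.60 (SE, n = 3 per group, edgeR adjusted p = 2.2e-05), and 79 called transcripts fell further. In MCAO microglia it remained at 246, 544 and 619 CPM, between the other 2 groups and without overlap with either. The call against sham was lost when the cell fraction field set the groups (log2 fold change -2.99, edgeR adjusted p = 0.15).

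Some transcripts were counted in one group and not at all in the other. Of 30404 identifiers, 12179 were at 0 in all sham libraries, and 1387 of these had a count in any macrophage library. In 51 of those every macrophage library held at least 10 counts, with a median level of 3.42 CPM in macrophages. The most abundant of them was at 208, 60.6 and 224 CPM in macrophage replicates 1 to 3, at least 425-fold above sham (floor of 3 counts per library, 0.387 CPM on average). In reverse, 12473 were at 0 in all macrophage libraries, 1681 of these had a count in any sham library, and 34 had at least 10 in each. The most abundant of the 34 was at 50.6, 49.0 and 38.6 CPM in sham replicates 1 to 3, at least 141-fold above macrophages (floor 0.328 CPM). MCAO microglia were above 0 in all 3 libraries for 27 of the 51 and for 18 of the 34, and at 0 in all 3 for 12 and 2. The sham libraries were shallower, at 6923630 to 7760586 expected counts against 8417126 to 9339330 in macrophages, which makes a 0 easier to reach in sham. A count of 0 at this depth limits the level and does not show absence, and these limits cover counting error only.

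Chi3l1 encodes a secreted chitinase-like glycoprotein that binds chitin without cutting it and is used as a marker of alternatively activated macrophages. It was at 118, 90.7 and 168 CPM in macrophage replicates 1 to 3, and at 9.92, 17.9 and 16.6 CPM in sham replicates 1 to 3. The groups did not overlap, and the lowest macrophage library was 5.08-fold above the highest sham library. In MCAO microglia Chi3l1 was at 48.9, 5.92 and 13.1 CPM, below every macrophage library. Its log2 fold change was 3.07 ± 0.65 (SE, n = 3 per group, edgeR adjusted p = 0.0024), yet 729 called transcripts rose further. That SE also draws on the spread of the MCAO microglia, which are part of the fit. With only the 6 libraries compared, the log2 fold change was 3.04 ± 0.29 (SE, edgeR adjusted p = 8.6e-05). The call was lost when the cell fraction field set the groups (log2 fold change 2.31, edgeR adjusted p = 0.14). Its line in the files also gives a mean transcript length over isoforms, which was 1711, 1712 and 1712 nt in macrophages and 1693, 1698 and 1709 nt in sham. Those groups did not overlap either, and an exact permutation test gave a two-sided p of 0.10, the smallest that 3 against 3 allows.

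Nos2, the inducible nitric oxide synthase, makes nitric oxide in macrophages exposed to inflammatory signals. Its level was 20.9, 5.83 and 33.3 CPM in macrophage replicates 1 to 3 and 0.495, 3.25 and 1.55 CPM in sham replicates 1 to 3. The groups did not overlap, but the gap between the closest libraries was 1.79-fold and the macrophage libraries differed 5.70-fold among themselves. In MCAO microglia it was at 9.31, 0.634 and 2.59 CPM, with replicate 1 above macrophage replicate 2. Macrophages did not pass the threshold against MCAO microglia (log2 fold change 2.23, edgeR adjusted p = 0.063). That fit treats the libraries as independent, although same-numbered macrophage and microglia libraries deviated together from their group means. Within each replicate number the macrophage library held more Nos2 than the microglia library, and this contrast was not tested with that pairing. The log2 fold change against sham was 3.44 ± 0.98 (SE, n = 3 per group, edgeR adjusted p = 0.011), with 599 called transcripts above it. The call was lost with limma-voom (adjusted p = 0.060) and without both libraries whose label fields disagree (edgeR adjusted p = 0.054), with log2 fold changes of 3.41 and 2.83, and when the cell fraction field set the groups (2.42, edgeR adjusted p = 0.18). The log2 fold change was 2.84 without macrophage replicate 3 and 4.18 without sham replicate 2. Per unit length, the ratio of Chi3l1 to Nos2 in TPM was 12.3, 33.8 and 10.99 in macrophages and 44.6, 12.1 and 23.5 in sham, so it overlapped between the groups. The sham ratios rest on only 3.69, 26.92 and 11.7 expected counts of Nos2 and are therefore uncertain.

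**Figure D4:**
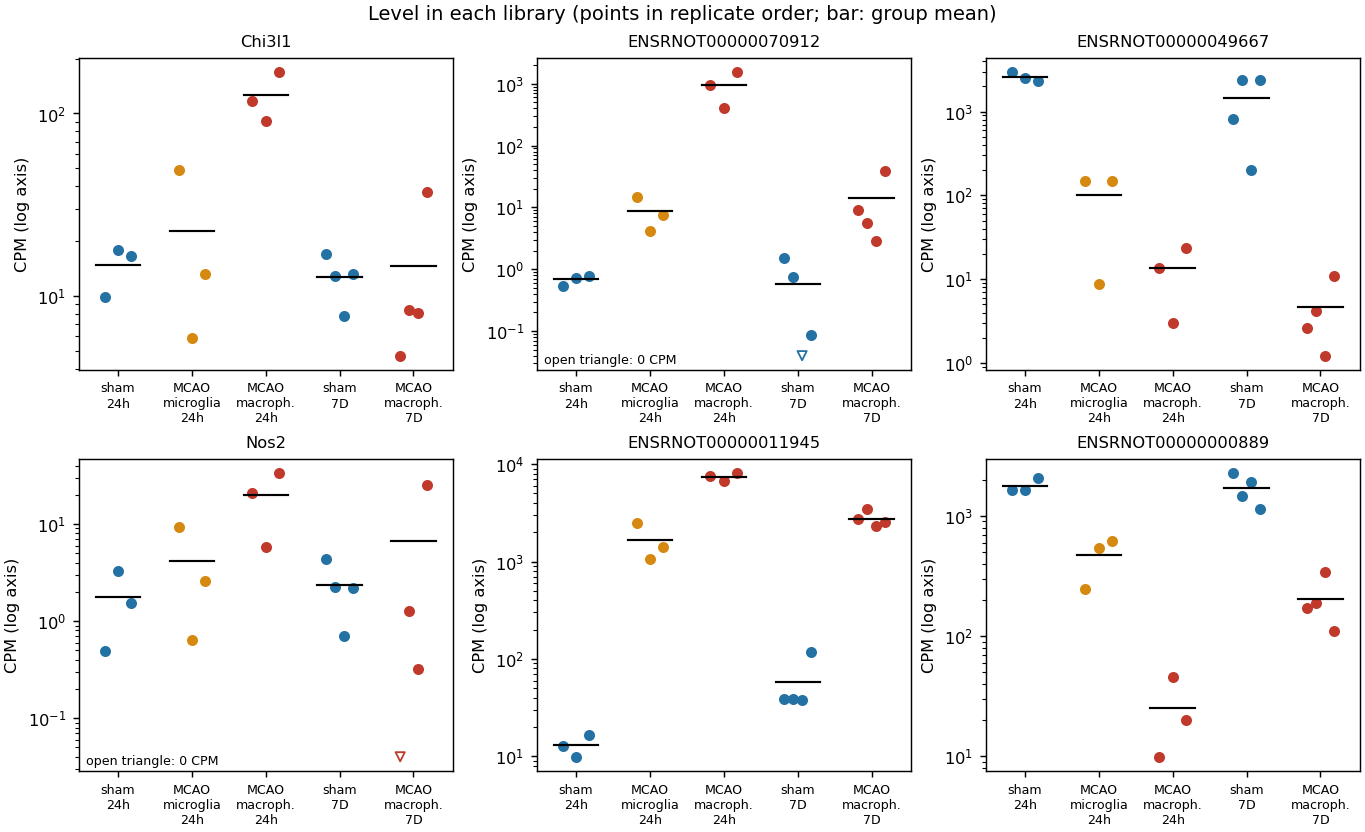
Points give the CPM of each library on a log axis for the 6 named genes and transcripts in 5 groups, and black bars the group means, with open triangles for libraries at 0. Chi3l1 in 24h macrophages lies at 90.7 to 168 CPM, above all other groups shown, and ENSRNOT00000011945 lies at 6669.7 to 8046 CPM there and at 2324 to 3448 CPM in 7D macrophages.

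Macrophage replicate 2 was the library closest to sham. Its correlations with the 3 sham libraries were 0.818 to 0.822, against 0.776 to 0.785 for replicates 1 and 3. It held the lowest macrophage level in 478 of the 752 transcripts at least 8-fold higher (63.6%) and the highest in 358 of the 545 at least 8-fold lower (65.7%). Over all tested transcripts it was lowest in 36.9% and highest in 36.2%. MCAO microglia replicate 2 was lowest of its group in 532 of the 752 (70.7%, against 33.0% of all tested). In the 545, microglia replicate 2 was highest in 262 (48.1%, against 35.7% of all tested). Replicate 3 was highest in 250 of them, against 3734 of all 13081 tested, so this excess was not particular to replicate 2. Same-numbered macrophage and microglia libraries deviated together from their group means (r = 0.22, 0.26 and 0.23 across transcripts for numbers 1 to 3), so the patterns of the 2 replicates numbered 2 are not separate observations. Without macrophage replicate 2, 9019 transcripts were called, with 789 rising and 745 falling 8-fold or more. For scale, among the 8924 transcripts whose mean log2 CPM reached 3, the median standard deviation within a group was 0.13 in macrophages and 0.099 in sham, on the log2(CPM + 1) scale.

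The same 2 lists were then looked up in the 7D set, a separate group of libraries with 4 macrophages and 4 sham microglia whose titles carry that prefix. Their treatment field also reads 24h, and the source name and cell fraction of the 7D macrophages are those of microglia, so neither their time nor their gate is settled. Of 752 transcripts at least 8-fold higher at 24h, 637 were tested in 7D, of which 544 (85.4%) were called higher and 0 lower. Across all transcripts tested in 7D, 56.6% were called, 28.4% higher and 28.1% lower. Of 545 at least 8-fold lower, 516 were tested, with 424 (82.2%) called lower and 5 higher. Their 7D median log2 fold changes were 2.35 and -1.87, against 4.30 and -4.00 at 24h (4.12 and -3.81 with transcripts at 0 counted at their bound), and the median over all transcripts tested in both sets was -0.02 in 7D. Of the 637, 198 rose 8-fold or more in 7D, against 2.17% of all transcripts tested, and of the 516, 124 fell as far, against 1.91%. Lists picked for extreme values in one set tend to be less extreme in another, and that part of the difference was not tested.

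**Figure D5:**
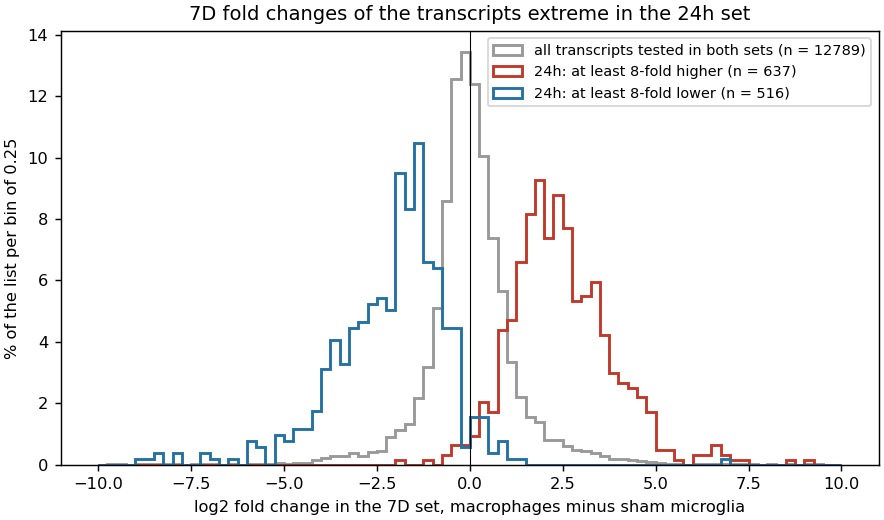
Lines give the distribution of the log2 fold change between 7D macrophages and 7D sham microglia, as percent of each list per bin of 0.25. The list at least 8-fold higher at 24h centres at 2.35, the list at least 8-fold lower at -1.87, and all transcripts tested in both sets at -0.02.

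The named transcripts differed in how far they kept their distance from sham in the 7D set. ENSRNOT00000011945 remained 46.3-fold higher in 7D macrophages, at 2736, 3448, 2324 and 2543 CPM against 38.7, 39.2, 38.1 and 117.9 CPM in sham (log2 fold change 5.53 ± 0.40, SE, n = 4 per group, edgeR adjusted p = 7.1e-07). ENSRNOT00000070912 was at 9.19, 5.67, 2.81 and 38.8 CPM in 7D macrophages and at 1.50, 0.747, 0 and 0.0849 CPM in sham (log2 fold change 4.50 ± 1.07, SE, n = 4 per group, edgeR adjusted p = 0.0035). Its 7D macrophage level was thus well under the 402 to 1536 CPM of the 24h macrophages. ENSRNOT00000049667 stayed low, at 2.65, 4.17, 1.23 and 10.8 CPM, while its 7D sham libraries ranged from 202 to 2395 CPM (log2 fold change -8.27 ± 0.90, SE, n = 4 per group, edgeR adjusted p = 1.4e-05). ENSRNOT00000000889 was at 172, 189, 339 and 110.4 CPM in 7D macrophages against 1137 to 2263 CPM in sham (log2 fold change -3.09 ± 0.47, SE, n = 4 per group, edgeR adjusted p = 0.00015). Chi3l1 and Nos2 did not pass the threshold in 7D, with log2 fold changes of 0.16 ± 0.53 and 1.45 ± 1.25 (SE, n = 4 per group, edgeR adjusted p = 0.82 and 0.35). Without 7D macrophage replicate 4 both turned negative, Chi3l1 to -0.84 with a call in that direction (edgeR adjusted p = 0.041) and Nos2 to -2.08 without one (0.12). A direct test of the difference between the sets called 25% of all transcripts, 12.4% with a more positive and 12.6% with a more negative log2 fold change in 7D.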

How the data were processed

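Sorted-cell polyA RNA was sequenced as strand-specific libraries, per the labels' protocols. The submitters' processing notes name bcl2fastq, TopHat2 and RSEM on rn5; for these tools the sources used here give no version or annotation. A deposited file per library lists the authors' RSEM expected counts, TPM and FPKM per transcript, per the file headers. For Chi3l1 and Nos2 all values stand 2 columns to the right, so their expected count was read from the FPKM column; FPKM was not used otherwise, and TPM served for per-length ranks. RSEM divides reads shared by isoforms or copies, and 110 of 13081 tested transcripts had the same counts as another in all 21 libraries. Of 30404 identifiers 0 matched the 47357 genes of the reference table (GRCr8), so no gene list or marker was applied.

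Expected counts were rounded and then compared by edgeR 4.0.16 under R 4.3.3 (its quasi-likelihood test, TMM, filterByExpr with a minimum count of 10 and total of 15, one term per group, the 9 libraries of the 24h set). Adjusted p-values are Benjamini-Hochberg over all transcripts tested, with Chi3l1 and Nos2 added, and "called" means under 0.05. The 7D contrast used its 12 libraries, and differences between the sets all 21. CPM is on 1 TMM scale over 21 libraries. SE was obtained as |log2 fold change|/sqrt(F). At 24h it draws on the spread within every group of the fit, MCAO microglia included, while n counts only the groups compared. With only the 6 libraries compared, SE was 0.64 for ENSRNOT00000049667 and 0.22 for ENSRNOT00000011945. DESeq2 1.42.0 and limma-voom (limma 3.58.1) were alternatives, with other scalings, filters, samples and groupings. The scripts were tested on simulated data.

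Beside Chi3l1 and Nos2, the named transcripts are, per direction, the largest log2 fold change among called transcripts without overlap whose mean log2 CPM reached 3, and the largest with at least 10 counts in all 6 libraries (the next one where both are the same); counting identical identifiers as 1 was decided after seeing them. Members and lists were chosen with earlier results of these data known. Replicate numbers did not pair macrophages with sham (r = -0.01 to 0.04 between deviations of same-numbered 24h libraries), but they did pair macrophages with MCAO microglia (0.22 to 0.26 at 24h, 0.39 to 0.48 in 7D), which the fits without a block treat as independent. Replicates of a group all differed by more than counting error, with a chi-square of 5.57 to 18.8 times its degrees of freedom.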

Additional observations from a re-analysis of the deposited data

Results flagged for a closer look

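In a set of 12 checks, 6 named genes and transcripts in each of the 7D macrophage and 7D sham groups, 3 groups held a library far from the other 3. The nominal chance rate of the rule is about 1 in 20 for each check, and whether it holds for these CPM values was not tested. Of the 3 flagged values, 2 come from the same library and are not independent. Chi3l1 was at 36.9 CPM in 7D macrophage replicate 4 against 4.71 to 8.34 CPM in the others. Nos2 was at 25.1 CPM in the same library against 0 to 1.26 CPM. ENSRNOT00000011945 was at 117.9 CPM in 7D sham replicate 4 against 38.1 to 39.2 CPM.

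The contrast of macrophages with sham microglia differed between the sets for 4 of the 6. This interaction test on all 21 libraries called 3560 of 14252 transcripts (25%), and the named transcripts had been picked on the 24h values. ENSRNOT00000011945 had a difference in log2 fold change, 7D minus 24h, of -3.58 ± 0.52 (SE, edgeR adjusted p = 7.4e-05), with 3 of 3 and 4 of 4 macrophage libraries above all sham libraries of their set. ENSRNOT00000000889 had a difference of 3.07 ± 0.72 (SE, edgeR adjusted p = 0.0041), and all macrophage libraries of both sets were below their sham libraries. For ENSRNOT00000070912 the difference was -5.92 ± 1.83 (SE, edgeR adjusted p = 0.024). That call ended with limma-voom (adjusted p = 0.21), without 7D sham replicate 1 (0.17) or 2 (0.065) and without both libraries whose label fields disagree (0.052, range over alternatives 0.00060 to 0.54). Chi3l1 had a difference of -2.88 ± 0.89 (SE, edgeR adjusted p = 0.023), a call that needed 24h macrophage replicate 3 (adjusted p = 0.060 with it left out) and 24h sham replicate 1 (0.062 with it left out), and was also lost without both libraries whose label fields disagree (0.064, range over alternatives 0.0011 to 0.50). All 4 calls were lost when the cell fraction field set the 24h groups, with edgeR adjusted p of 0.15 for ENSRNOT00000011945 and 0.999 for ENSRNOT00000000889. The part of set and of time in these differences cannot be told apart.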

How the results depend on the processing

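Of 309 recomputed counts, 297 stayed within 1.5 times of the reported one, and of 120 recomputed 24h fold changes of the 6 named genes and transcripts 115 kept direction and call. Leaving out 1 library gave 8522 to 9283 called in the 24h comparison (4330 to 4691 higher, 4192 to 4609 lower), 6914 to 8216 in 7D (3491 to 4375 higher, 3250 to 3841 lower) and 2828 to 3968 for the difference between sets (1446 to 2324 more positive, 1382 to 1837 more negative). With groups from the cell fraction field, 4422 transcripts were called at 24h (2657 higher, 1765 lower) and 18 for the difference between sets (12 more positive, 6 more negative), and 389 and 74 were called at least 8-fold higher and lower. On that grouping the 24h calls of Chi3l1 (adjusted p = 0.14) and Nos2 (0.18) ended, and the difference between sets for ENSRNOT00000000889 was -0.083. The number at least 8-fold lower was 830 without a filter on low counts and 332 with at least 50 counts in 3 libraries. With the replicate block, 9074 transcripts were called at 24h, 7941 in 7D and 3547 for the difference, and no 24h call of the 6 changed, although the 7D log2 fold changes turned to -0.15 for Chi3l1 and -0.34 for Nos2. They also turned with limma-voom (-0.23 and -1.22) and without 7D macrophage replicate 4 (-0.84 and -2.08), within ranges over left-out libraries of -0.84 to 0.50 and -2.08 to 1.91. Without that library the difference between sets for Nos2 was called (-5.48, adjusted p = 0.010). The difference for ENSRNOT00000049667, at -0.65 and not called, was 0.023 without 24h macrophage replicate 3, with a range of -1.40 to 0.023 over left-out libraries, and 0.022 without both libraries whose label fields disagree. The causes of these changes were not tested. Depth limits what can be said of scarce transcripts, where 3 counts stand for 0.319 to 0.402 CPM in the 6 libraries.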
